A study of Sus scrofa with 220 samples.

Results

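PRDM14, SALL2 and OTX2 are 3 genes for transcription factors that are commonly named with the epiblast, the layer of the early mammalian embryo from which the body forms. They were chosen by their symbols, and each matched a single Ensembl pig gene, so that 3 of the 22840 gene entries of the series are described here: PRDM14 (ENSSSCG00000006195), SALL2 (ENSSSCG00000022705) and OTX2 (ENSSSCG00000005063). The study sequenced the polyadenylated RNA of 220 single cells from 28 in vivo pig embryos, collected untreated at 4 stages after artificial insemination. The sows were Large White and Landrace crossbreds of 2 to 3 years, per the study's methods. The 7 cell type labels are morula (M, 47 cells of 8 embryos, with 1 cell whose name gives no embryo), inner cell mass (ICM, 24 cells of 7 embryos) and trophectoderm (TE, 28 cells of 10 embryos) of the early blastocyst, epiblast (LB EPI, 25 cells of 4 embryos) and hypoblast (LB HYPO, 36 cells of 5 embryos) of the late blastocyst, and epiblast (Sph EPI, 48 cells of 4 embryos) and hypoblast (Sph HYPO, 12 cells of 3 embryos) of the spherical embryo. Per the study's methods, the trophectoderm of late blastocysts was lysed with antiserum and complement, EPI and HYPO of spherical embryos were separated by hand, and trophectoderm was not sampled from either stage.

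PRDM14 is a zinc finger protein with a PR domain that is known in the mouse for holding pluripotency and for founding the germ line, and it works with the corepressor CBFA2T2. SALL2 is a zinc finger factor of the spalt family, whose members are best known for roles in organ formation and, for SALL4, in pluripotent cells. OTX2 is a homeobox factor known for the step from naive to primed pluripotency in the epiblast, for the visceral endoderm at the anterior side of the embryo, which in the pig is part of the hypoblast, and for the later forebrain.

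The cells held between 1012604 and 5696373 gene counts each, and the median per label lay between 1660326 (LB HYPO) and 2235586 (Sph EPI). Levels below are given in TPM, the length-normalised unit of transcript abundance, per cell, and as log2(CPM + 1) per embryo, where CPM is the count in the summed cells of 1 embryo and label, scaled to library size. In these sums fewer cells with a transcript and less RNA per cell cannot be told apart, so shares of cells are given as well. Summed TPM of 11 hypoblast markers had a median over cells of 2028 in LB HYPO and 2565 in Sph HYPO, and of at most 334 in any other label. The 6 epiblast markers other than the members, of 10 listed, had medians of 1290 in LB EPI and 989 in Sph EPI and of at most 92.5 elsewhere. The 11 trophectoderm markers, which include the epithelial keratins KRT8 and KRT18, had a median of 44840 in TE and also of 31780 in Sph HYPO. The library labelled TE from embryo E6-ER stood apart: its single cell had 174.6 TPM of trophectoderm markers with KRT8 at 0, where TE embryo means reached 58900, and its embryo is among the less certain readings of a cell name. The tests and shares of the 3 factors in TE are therefore given with and without it. The cell labels were drawn by the study in part from clusters of these same transcriptomes, so a test between labels of 1 stage is not independent of the genes, and the 3 genes were picked with earlier results known.

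The mean levels of PRDM14 and SALL2 were highest in the 2 epiblast labels, and those of OTX2 were not. In late blastocysts neither PRDM14 nor SALL2 passed the edgeR test of EPI against HYPO, and SALL2 was also found in 41.7% of ICM cells. Of 220 cells, 59 had PRDM14 above a TPM of 1, 73 had SALL2 and 169 had OTX2. PRDM14 was highest in LB EPI and Sph EPI, SALL2 had its highest means in Sph EPI, LB EPI and ICM, in that order, and OTX2 was highest in ICM and was also high in M. All 3 had their lowest embryo means in TE and Sph HYPO. In Sph HYPO embryo F reached an OTX2 level like that of Sph EPI, with a log2(CPM + 1) of 8.64. In TE only the library of E6-ER did so (8.67), which had few trophectoderm markers. Without E6-ER the highest TE embryo was at 7.21, below the lowest Sph EPI embryo (8.34).

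**Figure D1:**
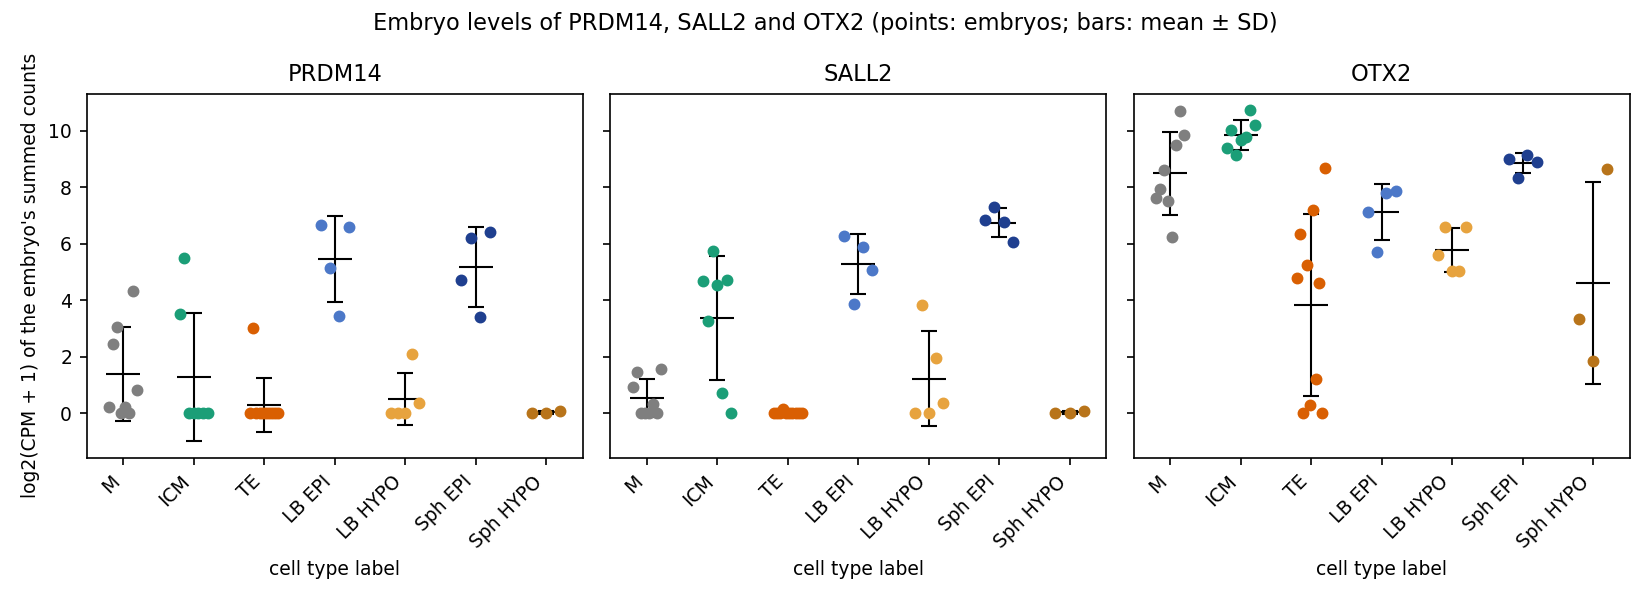
Embryo levels of the 3 factors as log2(CPM + 1) on the y axis for the 7 cell type labels on the x axis; points are embryos, bars the mean ± SD. PRDM14 and SALL2 stand above 3 in all 4 embryos of LB EPI and of Sph EPI, whereas OTX2 is highest in ICM, where its lowest embryo is at 9.15. Some embryos of other labels also stand above 3. PRDM14 reaches 5.51 in ICM, 4.32 in M and 3.02 in TE, and SALL2 reaches 5.75 in ICM and 3.85 in LB HYPO.

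PRDM14 had its highest levels in both epiblast labels. In LB EPI its log2(CPM + 1) was 6.67 in embryo AN, 5.15 in AO, 3.44 in AP and 6.59 in AQ, a mean of 5.46 ± 1.52 (SD, n = 4). In Sph EPI it was 4.71 in embryo C, 6.20 in D, 3.39 in E and 6.40 in F, a mean of 5.18 ± 1.41 (SD, n = 4). The 2 sets of embryos overlapped and their means lay within 1 SD of each other. At the cell level 13 of 25 LB EPI cells (52.0%, 95% exact Clopper-Pearson interval 31.3 to 72.2) and 34 of 48 Sph EPI cells (70.8%, 55.9 to 83.1) had a TPM above 1. These intervals cover counting error only. The median TPM of the cells above 1 was 90.8 in LB EPI and 57.5 in Sph EPI. The share of PRDM14 cells was uneven between embryos of 1 label: in Sph EPI it was 7 of 14 cells in C, 8 of 11 in D, 1 of 4 in E and 18 of 19 in F. Over the library pools, 33.3% of the LB EPI cells in the first 4 of the 8 pools and 69.2% of those in the last 4 had PRDM14.

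Outside the epiblast PRDM14 was found in few cells. In M, 6 of 47 cells (12.8%, 4.83 to 25.7) had it, with embryo levels from 0 to 4.32 and a median of 0.52 log2(CPM + 1). In ICM, 4 of 24 cells (16.7%, 4.74 to 37.4) had it, and all 631 counts came from embryos AA (148) and AC (483), the other 5 embryos being at 0. In TE 1 of 28 cells (1 of 27 without E6-ER), of embryo AB with 125 counts and a TPM of 88.1, carried all PRDM14 of the label. In LB HYPO 1 of 36 cells, of embryo AO, held 65.0 TPM, and the label had 85 counts in all. In Sph HYPO 0 of 12 cells were above a TPM of 1, which allows a share of up to 25%, and 1 count was seen in all. Ordered by the mean log2(CPM + 1), Sph EPI (5.18) stood above M (1.39) by more than the larger SD, whereas M, ICM (1.29), LB HYPO (0.49), TE (0.30) and Sph HYPO (0.03) did not differ from their neighbours in that order beyond it.

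The epiblast and the hypoblast of spherical embryos differed in PRDM14. It had 6041 counts in Sph EPI against 1 in Sph HYPO, a ratio of CPM of 1340 with a counting interval of 240 to 52900. The interval treats each read as independent and leaves out the spread between cells and embryos. PRDM14 passed edgeR's quasi-likelihood test (adjusted p = 0.0333). The groups did not overlap, and EPI was higher in 3 of 3 embryos that gave both. Of 14721 genes tested in this comparison 1.13% were called, and all genes together had a median of 0.57 on the log2 scale. With the embryo as a block the adjusted p was 0.234, it was 0.302 within the first 4 and 0.0910 within the last 4 library pools, and leaving out Sph EPI embryo C (0.0793), D (0.129) or F (0.156) or Sph HYPO embryo C (0.0667) or E (0.0600) also ended the call. In late blastocysts the counts of PRDM14 were 2767 and 85, with a fitted log2 fold change of 6.21 ± 1.78 (SE). The embryos did not overlap, yet the adjusted p was 0.114 in edgeR, where 1.92% of genes were called. Without LB HYPO embryo AO, which gave 84 of the 85 counts, it was 0.0252, where 1.62% of genes were called. Within the 2 sets of pools the log2 fold changes were 8.93 and 4.64.

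SALL2 was found in ICM and in both epiblast labels. In ICM its log2(CPM + 1) was 4.68 in embryo AA, 3.26 in AC, 5.75 in AD, 4.53 in AE, 0.71 in AF, 4.73 in AG and 0 in AI. The mean was 3.38 ± 2.20 (SD, n = 7), with 5 of 7 embryos above 3 and AF and AI near or at 0. In LB EPI it was 6.28 in AN, 3.88 in AO, 5.91 in AP and 5.08 in AQ, a mean of 5.28 ± 1.06 (SD, n = 4). In Sph EPI it was 6.86 in C, 7.32 in D, 6.76 in E and 6.08 in F, a mean of 6.76 ± 0.51 (SD, n = 4), the narrowest spread that SALL2 had among the labels where it was common. The shares of cells above a TPM of 1 were 41.7% (10 of 24 cells, 22.1 to 63.4) in ICM, 56.0% (14 of 25, 34.9 to 75.6) in LB EPI and 89.6% (43 of 48, 77.3 to 96.5) in Sph EPI. In Sph EPI all cells of embryos C (14) and D (11) had SALL2, against 3 of 4 in E and 15 of 19 in F, so that embryo F had the highest share of PRDM14 cells with a share of SALL2 cells below those of C and D.

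SALL2 was rare or at 0 in the remaining labels. In M 3 of 47 cells (6.38%, 1.34 to 17.5) and in LB HYPO 3 of 36 cells (8.33%, 1.75 to 22.5) were above a TPM of 1. The highest hypoblast value was a cell of embryo AM with 48.7 TPM. In TE 0 of 28 cells (0 of 27 without E6-ER) were above 1, which allows up to 10.7% of the 28. In Sph HYPO it was 0 of 12, with 1 count in each label. In the order of the means, Sph EPI stood above LB EPI by more than the larger SD (6.76 against 5.28) although their embryos overlapped. LB EPI, ICM (3.38), LB HYPO (1.23), M (0.54), Sph HYPO (0.03) and TE (0.02) each lay within it of the next.

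ICM and TE of the early blastocyst differed in SALL2, with 952 counts against 1. The ratio of CPM was 1060 with a counting interval of 190 to 42100, which again leaves out the spread between cells and embryos. The edgeR test gave an adjusted p of 0.00566, in a comparison in which 0.754% of genes were called. ICM was higher in 6 of 7 embryos that gave both labels, and the remaining embryo, AI, had 0 in both. Without the library from E6-ER, which had no SALL2 count, the adjusted p was 0.00468, and 184 genes (1.25%) were called in place of 111. It was 0.0512 without TE embryo AD, which held the single TE count, 0.159 with the embryo as a block, and 0.209 and 0.129 within the first and last 4 pools. In spherical embryos SALL2 had 11136 counts in EPI and 1 in HYPO, a ratio of 2470 (counting interval 443 to 97500, with the same limit). Its adjusted p there was 0.00363 in edgeR. Its adjusted p stayed below 0.05 under each of 17 alternative settings and left-out embryos, and was 0.0324 and 0.00819 within the 2 sets of pools. In late blastocysts it had 2088 counts in EPI and 392 in HYPO, of which 319 came from embryo AM, and the fitted log2 fold change was 3.71 ± 1.61 (SE, adjusted p = 0.245).

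**Figure D2:**
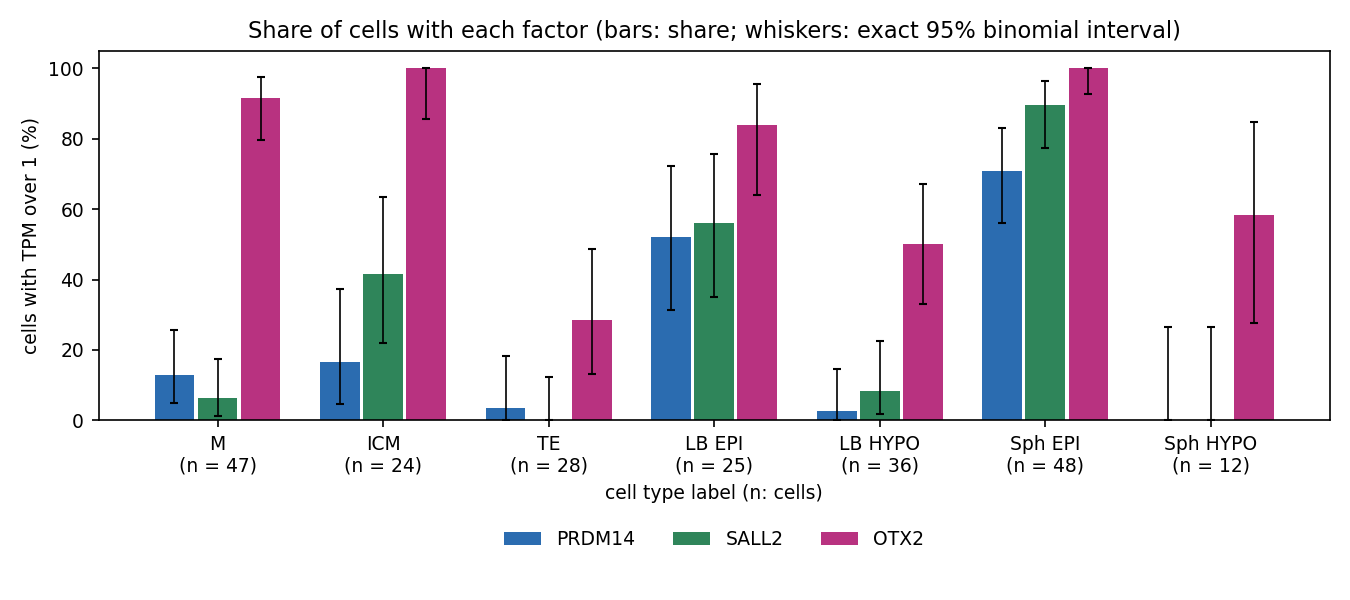
Share of cells with a TPM above 1 (y axis, percent) for each factor and cell type label (x axis, with the number of cells); whiskers are exact 95% binomial intervals. SALL2 stands at 41.7% in ICM, 56.0% in LB EPI and 89.6% in Sph EPI, and OTX2 at 91.5% in M and 100% in ICM and Sph EPI.

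OTX2 was the most widely found of the 3 and was not confined to the epiblast labels. In M its log2(CPM + 1) ran from 6.24 (embryo V) to 10.69 (X) with a median of 8.26, and 43 of 47 cells (91.5%, 79.6 to 97.6) were above a TPM of 1. In ICM it ran from 9.15 (AD) to 10.74 (AG) with a median of 9.78, and 24 of 24 cells (100%, 85.8 to 100) had it. In LB EPI it was 7.15 in AN, 5.73 in AO, 7.79 in AP and 7.88 in AQ, and 21 of 25 cells (84.0%) had it. In Sph EPI it was 9.01 in C, 8.34 in D, 9.14 in E and 8.91 in F, and 48 of 48 cells (100%, 92.6 to 100) had it. The means were 8.50 ± 1.46 (SD, n = 8) in M, 9.86 ± 0.53 (n = 7) in ICM, 7.13 ± 0.99 (n = 4) in LB EPI and 8.85 ± 0.35 (n = 4) in Sph EPI. ICM stood above Sph EPI by more than the larger SD, whereas Sph EPI and M, and M and LB EPI, did not differ beyond it. The embryos of ICM and Sph EPI nearly met, with ICM embryo AD, a sum of 1 cell, at 9.15 and Sph EPI embryo E at 9.14. ICM against Sph EPI was not tested. On the TPM scale, which allows comparison between genes, the median cell of Sph EPI held 301 TPM of OTX2, 33.4 of SALL2 and 27.8 of PRDM14.

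**Figure D3:**
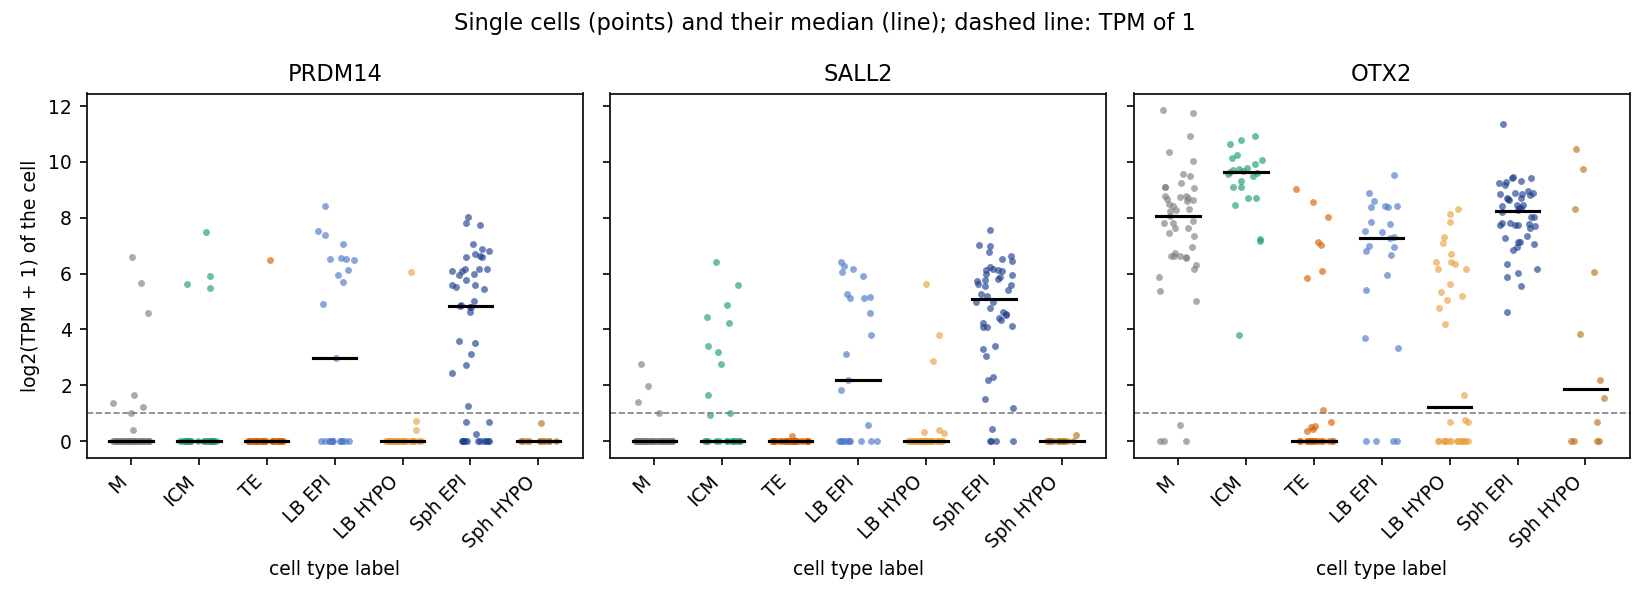
Single cells (points) as log2(TPM + 1) on the y axis for the 7 labels on the x axis, with the median of each label as a line and a TPM of 1 as a dashed line. OTX2 lies above the dashed line in every ICM and Sph EPI cell, whereas in LB EPI 12 of 25 cells for PRDM14 and 11 of 25 for SALL2 lie at or below it.

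OTX2 was higher in ICM than in both late blastocyst labels. Against LB EPI its log2 fold change was 2.58 ± 0.43 (SE, adjusted p = 0.00363), with no overlap of the 7 ICM and 4 LB EPI embryos, where 2.91% of genes were called and the median of all genes was -0.11. Within the first and last 4 pools the log2 fold changes were 2.1 (adjusted p = 0.214) and 2.88 (adjusted p = 0.00299). Against LB HYPO it was 4.04 ± 0.42 (SE, adjusted p = 3.02e-05), again with no overlap, where 2.1% of genes were called. Within the sets of pools the values were 3.8 (adjusted p = 0.00158) and 4.54 (adjusted p = 0.145). Neither PRDM14 (log2 fold changes of -2.99 ± 1.87 and 3.37 ± 2.54) nor SALL2 (-1.26 ± 1.22 and 2.57 ± 1.74) passed the test in these comparisons, with adjusted p-values of 0.387, 0.554, 0.662 and 0.477. ICM and the late blastocyst came from different embryos, so no block by embryo could be used there.

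Between M and ICM none of the 3 factors passed the test, in a comparison in which 2.45% of genes were called. SALL2 had the largest fitted difference, with 56 counts in M and 952 in ICM (log2 fold change -5.02 ± 1.59, adjusted p = 0.0891). OTX2 was at -0.92 ± 0.48 (adjusted p = 0.273) and PRDM14 at -1.08 ± 1.85 (adjusted p = 0.877). For PRDM14 the mean of log2(CPM + 1) was in contrast slightly higher in M (1.39 against 1.29), and without ICM embryo AC the fitted log2 fold change was 1.08.

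In TE, OTX2 was found in 8 of 28 cells (28.6%, 13.2 to 48.7). The embryo levels were 4.78 in AA, 6.36 in AB, 0 in AC, 5.24 in AD, 0.29 in AE, 7.21 in AF, 1.20 in AG, 4.62 in AH, 0 in AI and 8.67 in E6-ER, so that the highest value was that of the library that lacked trophectoderm markers (516 TPM). All 7 ICM embryos lay above all TE embryos, and ICM was higher in 7 of 7 embryos that gave both labels. The log2 fold change of ICM against TE was 3.78 ± 1.11 (SE) with an adjusted p of 0.105, and without E6-ER it was 4.84 ± 1.08 with an adjusted p of 0.0272, and 7 of 27 cells (25.9%) had OTX2. The other 7 TE cells with OTX2 held between 1.18 and 374 TPM. Their summed trophectoderm markers ranged from 2126 to 59860 TPM with a median of 36760, against 29280 to 76370 in the 20 cells at or below a TPM of 1, and the cell at 374 TPM, of embryo AB, was the one at 2126. What these markers add to the OTX2 values was not tested. PRDM14 did not pass the test between ICM and TE (log2 fold change 3.49 ± 2.09, adjusted p = 0.470, and 3.31 with an adjusted p of 0.514 without E6-ER).

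The hypoblast cells divided into cells with and without OTX2. In LB HYPO 18 of 36 cells (50.0%, 32.9 to 67.1) were above a TPM of 1, with embryo levels of 5.59 in AL, 6.61 in AM, 5.05 in AN, 5.03 in AO and 6.59 in AP (mean 5.77 ± 0.79, SD, n = 5). LB EPI was higher in 3 of 3 embryos that gave both labels, by 0.70 to 2.1 on the log2 scale, but the embryos of the labels overlapped and the test was not passed (log2 fold change 1.37 ± 0.61, adjusted p = 0.248). The LB HYPO cells with OTX2 had a median of 2314 TPM of summed hypoblast markers and those without it 1391, with ranges of 563 to 3918 and 415 to 5507. Their epiblast markers summed to a median of 84.2 and 19.8 TPM, with ranges of 0 to 150 and 0 to 143. The medians of both sets of markers were thus higher in the cells with OTX2, while the ranges overlapped widely. These cells were pooled over embryos and are not replicates, and the part of the markers was not tested.

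In Sph HYPO, OTX2 was concentrated in 1 embryo. Its log2(CPM + 1) was 3.35 in C, 1.84 in E and 8.64 in F, and 6519 of the 6562 counts came from F. Embryo F thus reached the range of Sph EPI, while C and E, with 2 cells each, lay far below it. EPI against HYPO gave a log2 fold change of 1.80 ± 1.24 (SE, adjusted p = 0.488), and without HYPO embryo F one of 6.33 ± 0.73 (adjusted p = 0.00790), where 3.96% of genes were called. Within F the 8 cells split evenly: 4 cells held 64.9 to 1406 TPM of OTX2 and 4 cells had 0. These 2 sets were compared after their values were seen, and 4 cells of 1 embryo are not replicates. EOMES, a T-box factor also known from anterior visceral endoderm, was at 88.2 to 122 TPM in the 4 OTX2 cells and at 0 to 24.4 in the other 4. The homeobox factor GSC was above a TPM of 1 in 3 and 0 cells, and the Wnt inhibitor SFRP1 likewise in 3 and 0. By label, SFRP1 was more common in Sph EPI (87.5% of cells, mean 33.3 TPM) than in Sph HYPO (25%, 3.26 TPM). LHX1, the partner homeobox factor of OTX2 in head formation, ranged from 9.34 to 59.5 TPM in the OTX2 cells and from 0 to 18.6 in the other 4. The secreted Wnt inhibitor DKK1 was in 3 and 2 cells. Summed hypoblast markers were 1314 to 3447 TPM in the OTX2 cells and 1026 to 2311 in the others, and summed trophectoderm markers 53780 to 71200 and 18500 to 38070, so that these keratin-rich values also moved with OTX2, and their part was not tested. The 2 HYPO cells of embryo C had EOMES at 104 and 158 TPM, GSC between 63.5 and 75 TPM, with OTX2 at 13.2 and 1.88, so that these genes did not go together in every cell. Epiblast markers in the 4 OTX2 cells of F summed to between 18.7 and 151 TPM, with a median of 148, and in the 4 cells without OTX2 to between 0.73 and 120, with a median of 58.3, against a median of 989 in Sph EPI. The ligand NODAL was in 3 and 1 of these cells. The part of these markers was not tested either. PRDM14 and SALL2 were below a TPM of 1 in each of the OTX2 cells.

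**Figure D4:**
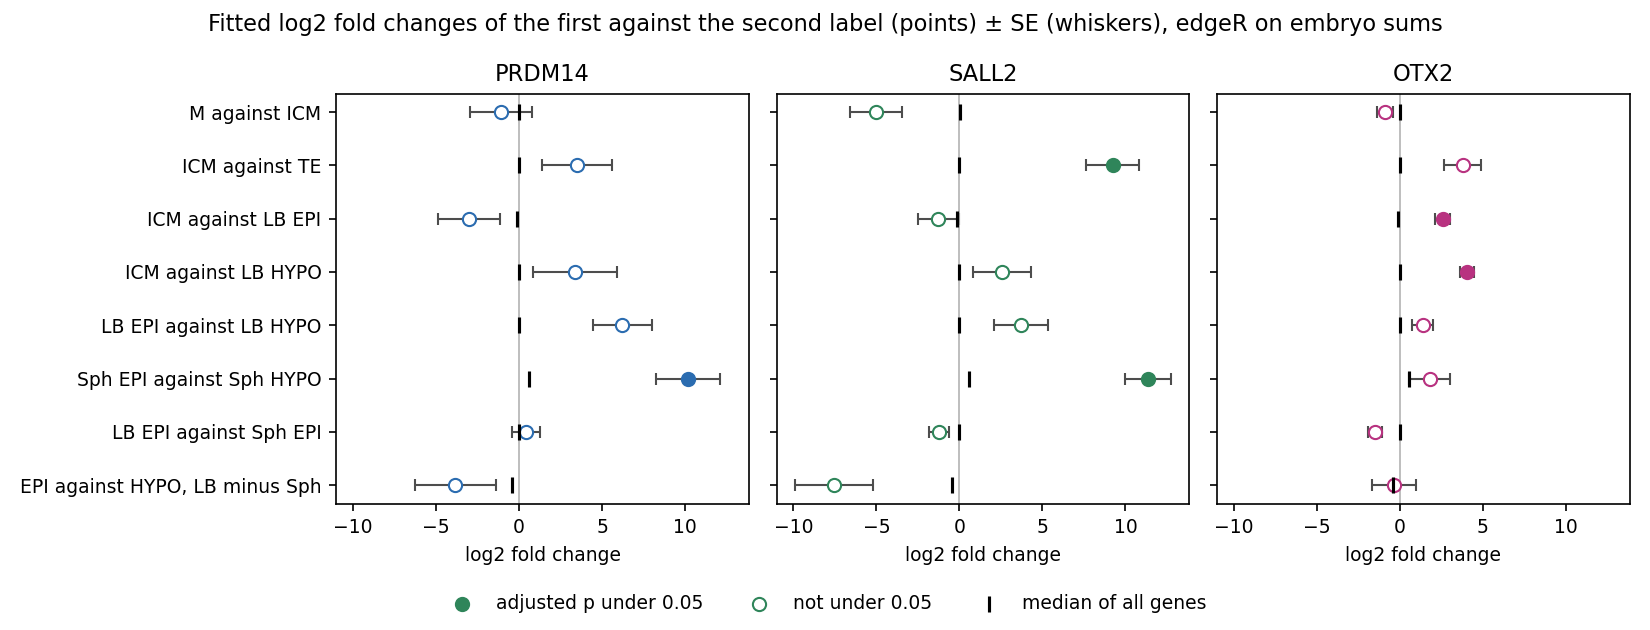
Fitted log2 fold changes (x axis) of each factor in the 8 comparisons (y axis), first label against second; whiskers are the SE, filled points have an adjusted p under 0.05 in edgeR, and the vertical tick is the median of all genes. The filled points are SALL2 in ICM against TE, OTX2 in ICM against both LB labels, and PRDM14 and SALL2 in Sph EPI against Sph HYPO, where the fits rest on a single count in the second label for PRDM14 and SALL2.

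Between the epiblasts of the 2 stages none of the 3 factors passed the test, in a comparison in which 0.156% of genes were called. The log2 fold change of LB EPI against Sph EPI was 0.42 ± 0.85 for PRDM14 (adjusted p = 0.946), -1.23 ± 0.59 for SALL2 (adjusted p = 0.386) and -1.48 ± 0.42 for OTX2 (adjusted p = 0.223). For OTX2 the 4 LB EPI embryos lay below all 4 Sph EPI embryos. Whether the difference of EPI from HYPO itself changed between the stages was tested as an interaction, with 0.0408% of genes called. It was -3.83 ± 2.43 for PRDM14 (adjusted p = 0.652), -7.54 ± 2.35 for SALL2 (adjusted p = 0.334) and -0.35 ± 1.34 for OTX2 (adjusted p = 1), the median of all genes being -0.43. Without Sph HYPO embryo F the OTX2 value was -4.88 (adjusted p = 0.0216, with 1.12% of genes called), and it was above 0 without LB EPI embryo AO (0.03), Sph HYPO embryo C (0.24) or E (0.24). SALL2 and PRDM14 passed the test between EPI and HYPO in spherical embryos and not in late blastocysts without the change between stages passing it.

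All 3 factors were found in the same cell in both epiblast labels, and in few cells or none of the others. Of 48 Sph EPI cells 29 had all 3 above a TPM of 1 (60.4%, 45.3 to 74.2), and the other 19 had exactly 2, of which 14 lacked PRDM14 and 5 lacked SALL2. No Sph EPI cell had fewer than 2. Of 25 LB EPI cells 8 had all 3 (32%, 15.0 to 53.5), 8 had exactly 2, 8 had exactly 1 and 1 had none, so that 9 of 25 had at most 1 of the factors. Over the cells, log2(TPM + 1) of PRDM14 and OTX2 had a Pearson's r of -0.33 in Sph EPI (n = 48) and of -0.20 in LB EPI (n = 25), and PRDM14 and SALL2 one of -0.15 and 0.14. These values are weak, come from sparse counts of cells that share embryos, and are given as a description. In ICM 2 of 24 cells had all 3 and 12 had OTX2 as the only one of the 3, while in M 37 of 47 cells had exactly 1. No TE, LB HYPO or Sph HYPO cell had all 3, and in Sph HYPO 7 of 12 cells had OTX2 alone and 5 none. The median depth of Sph EPI cells with PRDM14 was 2531209 counts against 2100180 in those without it, while in LB EPI it was 1788795 against 1987464, so that the cells without PRDM14 were the shallower ones in the first label and not in the second.

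**Figure D5:**
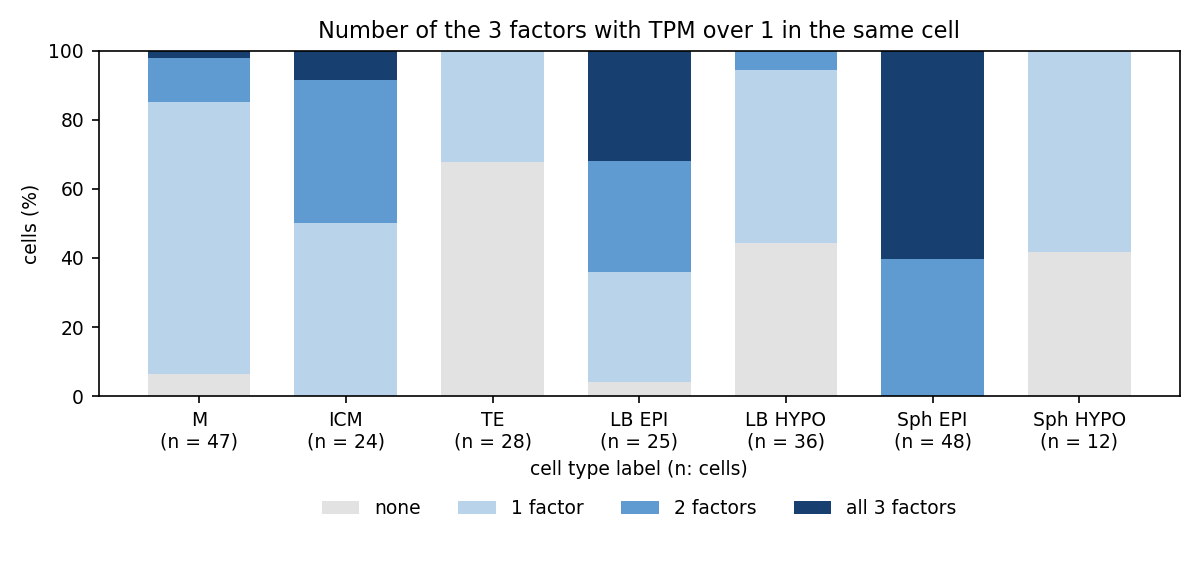
Share of cells (y axis, percent) by how many of the 3 factors had a TPM above 1 in the same cell, for the 7 labels (x axis, with the number of cells). All 3 were found in 60.4% of Sph EPI and 32% of LB EPI cells and in no TE, LB HYPO or Sph HYPO cell.

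The relatives of the 3 factors showed other patterns. Of 15 symbols of the PRDM family, 13 were matched and 10 were tested. In Sph EPI against Sph HYPO 3 of these 10 were called higher in EPI and 0 lower, where 1.13% of all genes were called. The family median log2 fold change was 0.22 against 0.57 for all genes. The 3 called genes included PRDM14 itself and MECOM (6611 counts against 0, adjusted p = 0.0158), a factor known from blood stem cells. MECOM was above a TPM of 1 in 20% of LB EPI and 64.6% of Sph EPI cells and in 0 of 12 Sph HYPO cells. PRDM1, which represses somatic genes in germ cell precursors, was in 75% of Sph HYPO, 32% of LB EPI and 12.5% of Sph EPI cells and in no M, ICM or TE cell, and rose from 0 counts in ICM to 1447 in LB EPI (adjusted p = 0.0158). PRDM2 was broad, with 72.0% to 100% of cells in each label. PRDM4 was in 16.7% to 54.2% of cells, PRDM10 in 10.7% to 58.3% and PRDM15 in 5.56% to 34%. None of the 10 was called in the other comparisons, apart from PRDM1.

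Of the 4 SALL family symbols 3 were matched and tested. SALL1 was in 100% of the 12 Sph HYPO cells, at a mean of 7.63 TPM, and in 41.7% of Sph EPI cells. SALL3 was in 68.8% of Sph EPI and 0% of Sph HYPO cells. SALL2 was the only member called in any comparison, in ICM against TE and in Sph EPI against Sph HYPO. Of 11 homeobox genes related to OTX2 or acting with it, 7 were matched and 5 tested, and OTX2 was the only one called, in ICM against LB EPI and against LB HYPO. GSC was in 62.5% of ICM, 40.4% of M and 41.7% of Sph HYPO cells and in 4.17% of Sph EPI cells, and LHX1 in 75% of Sph HYPO cells and in at most 8.33% of any other label.

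Among the known partners of PRDM14, 10 of 11 symbols were matched and 9 tested, PRDM1 among them. CBFA2T2, its corepressor, was in 68.0% of LB EPI and 68.8% of Sph EPI cells and in 25% of the cells of each HYPO label, and was called in none of the 8 comparisons. RUNX1T1, of the same corepressor family, had 15622 counts in ICM and 119 in LB HYPO (log2 fold change 7.87 ± 1.21, adjusted p = 0.00140). TFAP2C, which acts with PRDM14 in germ cell precursors, was higher in ICM (4.86 ± 0.80, adjusted p = 0.00246) and in LB EPI (3.90 ± 0.86, adjusted p = 0.0359) than in LB HYPO. TET1, an enzyme of DNA demethylation, was higher in M than in ICM (2.37 ± 0.42, adjusted p = 0.00374). Of the Polycomb members EZH2, SUZ12, EED and JARID2, none was called.

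Of 17 gene entries tested for genes that mark primed pluripotency, with 1 gene counted as 2 entries, 6 were called higher in LB EPI than in LB HYPO and 0 lower, where 1.92% of all genes were called, with a median log2 fold change of 3.98 against 0.00 for all genes. In spherical embryos 3 were called higher in EPI and 0 lower, with a median of 4.09 against 0.57 and 1.13% of all genes called. All 6 and all 3 were also used as epiblast markers of the labels, so these counts are not independent of the labels. The 3 were ETV1, an ETS factor downstream of FGF signals (29037 counts against 0, adjusted p = 0.000639), the ligand FGF19 (14382 against 1, adjusted p = 0.00688) and the deubiquitinase USP44 (78554 against 65, adjusted p = 0.00426). Not every gene of the list went this way, although none was called higher in HYPO. CDH2 had a mean of 12.6 TPM in LB EPI and 241 in LB HYPO, and of 10.4 in Sph EPI and 248 in Sph HYPO. FST had 7.39 in LB EPI and 82.2 in LB HYPO, and 96.2 in Sph EPI and 192 in Sph HYPO. Between LB EPI and Sph EPI no gene of the list was called. Against ICM, 4 were called higher in LB EPI and 0 lower, where 2.91% of all genes were called, among them ETV4 (0 counts in ICM and 2943 in LB EPI, adjusted p = 0.00448), the ligand NODAL (0 and 880, adjusted p = 0.0223) and USP44 (185 and 10398, adjusted p = 0.0426). The adhesion gene CDH2 was called higher in ICM than in TE, also without E6-ER (adjusted p = 0.00146), and ETV1 in ICM than in LB HYPO.

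Of 10 naive pluripotency genes tested, 1 was called higher in ICM than in LB EPI and 0 lower, where 2.91% of all genes were called. The list median log2 fold change was 0.06 against -0.11 for all genes. The called gene was KLF4, a zinc finger factor (3.78 ± 0.67, adjusted p = 0.00539), which was also higher in ICM than in LB HYPO (4.73 ± 0.98, adjusted p = 0.0140). By share of cells the list went both ways. ESRRB was in 87.5% of ICM and 32% of LB EPI cells and TBX3 in 91.7% and 20%, whereas NR5A2 was in 37.5% and 72% and GBX2 in 0% and 44%. KLF17 was higher in LB EPI than in LB HYPO (2797 counts against 1, adjusted p = 0.00269) and in ICM than in LB HYPO (3749 against 1, adjusted p = 0.0120). PECAM1 was higher in ICM than in TE (9.82 ± 1.16, adjusted p = 0.000128, and 4.88e-05 without E6-ER) and than in M, and in Sph HYPO than in Sph EPI (3867 counts against 1, adjusted p = 0.00363), where the T-box factor TBX3 was higher in HYPO too (2059 against 1, adjusted p = 0.0115). TBX3 was also higher in M than in ICM (1.98 ± 0.40, adjusted p = 0.00962). The 5 tested genes of mesendoderm commitment and the 5 of the anterior hypoblast were called in none of the comparisons, with EOMES and GSC in both lists. Of 7 core pluripotency symbols only the RNA-binding LIN28A was matched, and it was called in none.

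Over the 41 embryo sums, the genes with a symbol whose log2(CPM + 1) was most like that of each factor were named by Pearson's r. The sums share libraries and depth within an embryo, 6 of them are single cells, and labels carry most of the range, so r is given as a description. For PRDM14 they were TDRD10 (0.81), ARHGAP9 (0.81), PRCP (0.81), USP44 (0.80) and RRAGD (0.80), and SALL2 followed in place 130 (0.67). USP44, for instance, had means of 7.56 in LB EPI and 9.36 in Sph EPI and of at most 1.15 in the other labels. For SALL2 they were ETV1 (0.81), MNS1 (0.80), LPCAT2 (0.80), RRAGD (0.79) and IFT27 (0.79). ETV1 had a mean of 5.67 in ICM, 7.65 in LB EPI and 8.10 in Sph EPI and of at most 0.98 elsewhere, the same order of labels as SALL2 at its top. For OTX2 the values were lower, with ACADM (0.70), RUNX1T1 (0.68), STAT2 (0.68), DSN1 (0.67) and SRSF6 (0.66). They stood in places 1, 3, 4, 5 and 7 among all genes, those without a symbol included. OTX2 had an r of 0.34 with PRDM14 and of 0.43 with SALL2.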

How the data were processed

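Single cells were picked by hand, and libraries were made by the Smart-seq2 protocol, which has no molecular identifiers. The authors trimmed the reads, aligned them to the pig genome Sscrofa10.2 with HISAT2 2.1.0, kept uniquely mapped reads, counted them per Ensembl gene with htseq-count and removed cells of low depth or with many mitochondrial reads. They deposited raw counts and TPM values per gene and cell for 22840 entries, of which 16 were added by them. Both tables were used as deposited.

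Cell names begin with the letters of their embryo, and these gave the embryo. Counts were summed per embryo and label (41 sums, 219 cells, 1 cell left out for lack of an embryo), and genes above a TPM of 1 in at least 3 cells (14721) were tested with edgeR 4.0.16 (R 4.3.3): TMM scaling, quasi-likelihood fit of the 2 labels compared, Benjamini-Hochberg adjustment over all genes, threshold 0.05. The SE is the absolute log2 fold change over the root of F. This replaced the authors' single-cell test because cells of 1 embryo are not replicates. Embryos were the replicates, and p-values measure their spread. DESeq2 1.42.0, limma 3.58.1 on log2(TPM + 1) with a pseudocount of 1, no TMM scaling, no filter, sums of at least 2 cells, 1 model of all labels, the embryo as a block, either set of 4 library pools, no cells of a less certain embryo, and each embryo left out were alternatives. Sums with the same embryo come from the same animal and so pair. Their residuals over 11433 genes correlated with a median r of 0.05 in ICM and TE, 0.02 at LB and 0.06 at Sph, against -0.01, -0.01 and -0.03 between other embryos.

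The 3 factors and the 12 gene lists were chosen with earlier results of these data known. From each list up to 3 called genes per direction with the largest change were named, also family members above a TPM of 1 in at least 10% of the cells of a label, and the 5 genes with a symbol most like each factor. Some genes that this rule names are not reported here. Cells of embryo F of Sph HYPO were described after their values were seen. Shares have exact Clopper-Pearson 95% intervals, and the limit for 0 cells is 3 counts of the total. Python 3.11.15 with scipy 1.17.1 and pandas 2.3.3 was used. The genome build of the files was not in hand, so no sequences or coordinates are given.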

Additional observations from a re-analysis of the deposited data

Results flagged for a closer look

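In 18 sets of 4 to 10 embryos (3 factors in 6 labels), 3 had a single embryo far from the others by Dixon's criterion, where chance gives about 1 in 20. That rate does not hold for 2 of the 3, PRDM14 and SALL2 in TE, where all other embryos were at 0 and any count stands apart. For PRDM14 in LB HYPO 3 of the 5 embryos were at 0, so the rate cannot be relied on there either. PRDM14 in TE was at a log2(CPM + 1) of 3.02 in embryo AB, with 1 of its 9 cells above a TPM of 1, with the nearest other embryo at 0. PRDM14 in LB HYPO was at 2.12 in embryo AO, with 1 of its 16 cells above a TPM of 1, with the nearest at 0.36, and that cell also held OTX2. SALL2 in TE was at 0.15 in embryo AD, from 1 count, with the nearest at 0.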

How the results depend on the processing

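Of 513 values of the 3 factors under alternatives, 471 kept their direction and their side of the threshold, and 42 did not, with the cause not tested unless given. All values here are adjusted p-values. DESeq2 called SALL2 in M against ICM (0.00243), PRDM14 (0.00116) and SALL2 (0.0403) in LB EPI against LB HYPO, and SALL2 in the interaction (0.0253). limma on TPM called OTX2 in ICM against TE (0.00724) and in Sph EPI against Sph HYPO (0.0199) and SALL2 in LB EPI against LB HYPO (0.0160), did not call SALL2 in ICM against TE (0.0896) or PRDM14 in Sph EPI against Sph HYPO (0.155), and turned the sign of PRDM14 in the interaction (0.955). One model of all labels called SALL2 in M against ICM (0.0329) and OTX2 in ICM against TE (0.0177), and not OTX2 in ICM against LB EPI (0.226) and LB HYPO (0.0771) or PRDM14 in Sph EPI against Sph HYPO (0.275). With the embryo as a replicate block SALL2 in ICM against TE (0.159) and PRDM14 in Sph EPI against Sph HYPO (0.234) lost their calls, and no other call of the 3 factors changed. The first 4 pools, with fewer cells and embryos, turned the sign of PRDM14 in M against ICM (0.861) and in the interaction (1) and of OTX2 in the interaction (1), and lost SALL2 in ICM against TE (0.209), OTX2 in ICM against LB EPI (0.214) and PRDM14 in Sph EPI against Sph HYPO (0.302). The last 4 pools turned OTX2 in the interaction (1) and lost SALL2 in ICM against TE (0.129), OTX2 in ICM against LB HYPO (0.145) and PRDM14 in Sph EPI against Sph HYPO (0.0910). Without cells of a less certain embryo OTX2 in ICM against TE was called (0.0272). Leaving out each embryo gave ranges of 0.652 to 0.949 for PRDM14 in M against ICM (turned without ICM AC), 0.00413 to 0.0512 for SALL2 and 0.0272 to 0.135 for OTX2 in ICM against TE, 0.0252 to 0.249 for PRDM14 in LB EPI against LB HYPO, 0.0453 to 0.156 for PRDM14 and 0.00790 to 0.674 for OTX2 in Sph EPI against Sph HYPO, and 0.0216 to 1 for OTX2 in the interaction.

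The number of genes called depended on the tool: DESeq2 against edgeR gave 1205 against 361 in M against ICM, 449 against 111 in ICM against TE, 1373 against 428 and 1098 against 309 in ICM against LB EPI and LB HYPO, 1384 against 283 in LB EPI against LB HYPO, 1451 against 167 in Sph EPI against Sph HYPO, 827 against 23 between the epiblasts and 540 against 6 in the interaction. The block gave 20 in LB EPI against LB HYPO and 82 in Sph EPI against Sph HYPO, and 583 were called there without Sph HYPO embryo F. limma called 687, 227, 939, 642, 734, 514, 163 and 193 in the same order. One model of all labels called 865 in ICM against TE, 755 in ICM against LB EPI, 170 in LB EPI against LB HYPO and 95 in Sph EPI against Sph HYPO. Without cells of a less certain embryo 184 were called in ICM against TE. Over the 7 pairs of labels the first 4 pools gave 15 to 201 and the last 4 gave 7 to 195. In the interaction the last 4 pools gave 0 in edgeR (906 at an unadjusted p under 0.05). Leaving out 1 embryo gave 58 to 184 in ICM against TE, 138 to 294 in LB EPI against LB HYPO, 78 to 583 in Sph EPI against Sph HYPO and up to 165 in the interaction. Shares of cells at any count or above a TPM of 5 stayed within their intervals in all 42 cases. Levels of a factor in a label were less stable, with 10 of 21 counted as unchanged and 11 as changed. In the embryo means of log2(TPM + 1), PRDM14 was lower in M than in ICM (0.43 against 0.55), the reverse of the order in log2(CPM + 1). With 3 to 10 embryos per label and 6 sums of 1 cell, a difference that missed the threshold is not shown to be absent.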
